A study of Mus musculus with 8 samples.

Results

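Th17 programme genes, 8 in number, were followed in splenic CD4 T cells of mice with and without Ahr, the gene of the aryl hydrocarbon receptor. The members were Rora, Il17a, Ccr6, Stat3, Il6ra, Il6st, Tmem176a and Tmem176b, and every probe set whose array annotation names a member as its only gene was taken. A probe set combines several short probes against a stretch of transcript. This gave 16 of the 22626 probe sets tested, for 8 of the 12393 genes that can be named singly. There were 3 probe sets each for Rora, Stat3 and Il6st, 2 each for Il6ra and Tmem176a, and 1 each for Il17a, Ccr6 and Tmem176b.

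The study held 8 arrays in 4 groups of 2: Ahr knockout mice (KO) given TCDD, KO mice given DMSO, wild type C57BL/6 mice (WT) given TCDD, and WT mice given DMSO. All mice were females of 8 to 12 weeks, and the KO line had been backcrossed to C57BL/6. TCDD, a dioxin that binds the receptor with high affinity, was injected intraperitoneally at 10 µg/kg in corn oil, DMSO likewise in corn oil, and cells were taken 24 h later. CD4 T cells were sorted by flow cytometry, and an array stands for a pool of 4 animals. The spread between arrays is therefore that between pools. The sources used here do not say which part of Ahr the KO line lacks.

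Th17 cells are helper T cells that make the cytokine IL-17A and act in defence and inflammation at mucosal surfaces. In the mouse, IL-6 acts through the receptor chains Il6ra and Il6st (gp130) on the transcription factor Stat3, and nuclear receptors such as Rora then help to direct the Th17 state. Mouse Tmem176a and Tmem176b encode related membrane proteins with ion channel activity that are made by some lymphocytes and also by dendritic cells and macrophages. Il17f, Il22 and Il23r were not analysed here.

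Tmem176b was the 1 member called higher in KO cells, by 2.58-fold. Of the 3 probe sets of Il6st, 1 was called lower, at a level 1.95-fold lower in KO than in WT. Both calls were fragile, and over 21 alternatives the Tmem176b call was lost in 10 and the Il6st call in 13. On 1 of its 2 probe sets Tmem176a lay higher on all 4 KO arrays than on any WT array, but it did not pass the test. Of 19 measured myeloid and dendritic cell markers 11 rose in KO as well, and 5 of 6 class II genes, beside 3.24% of all genes called. Their part in the Tmem176b and Tmem176a differences was not tested. Rora, Il17a, Ccr6, Stat3 and Il6ra gave no called difference between genotypes. TCDD gave none for any member in either genotype, but with 2 against 2 arrays it gave 0% among all probe sets too. Values are log2 expression made with RMA, which subtracts background, puts the arrays on a common scale and merges the probes of a set. A difference of 1 is a doubling, and levels of different probe sets are not compared.

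Tmem176a and Tmem176b lie next to each other on mouse chromosome 6, on opposite strands. Their first listed promoter windows, from 250 bases before the start to 50 bases after it, share 155 bases. They are shown because Tmem176b and 1 of the 2 probe sets of Tmem176a lay higher on every KO array than on any WT array. The windows come from RefSeq (GRCm38.p6), at chr6:48841233-48841532 on the plus strand for Tmem176a and chr6:48841088-48841387 on the minus strand for Tmem176b. Each is written 5′ to 3′ on its own strand, and capitals mark the shared bases.
Tmem176a: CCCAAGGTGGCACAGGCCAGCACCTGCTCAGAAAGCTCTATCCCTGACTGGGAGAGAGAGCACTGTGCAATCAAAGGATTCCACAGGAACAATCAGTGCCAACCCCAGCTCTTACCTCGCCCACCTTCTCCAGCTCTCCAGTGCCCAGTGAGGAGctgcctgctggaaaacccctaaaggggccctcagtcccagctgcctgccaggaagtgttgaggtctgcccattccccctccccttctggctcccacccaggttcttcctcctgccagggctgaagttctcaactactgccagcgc
Tmem176b: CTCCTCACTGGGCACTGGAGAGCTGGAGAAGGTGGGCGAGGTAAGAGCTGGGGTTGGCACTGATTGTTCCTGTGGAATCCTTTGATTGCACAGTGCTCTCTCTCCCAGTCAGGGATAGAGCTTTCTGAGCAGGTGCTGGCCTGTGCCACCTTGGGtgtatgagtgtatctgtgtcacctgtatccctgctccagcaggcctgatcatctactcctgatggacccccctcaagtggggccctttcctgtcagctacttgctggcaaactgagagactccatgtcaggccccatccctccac
RefSeq lists 12 such windows for the 8 genes, and 3 motifs were searched in them on both strands. The core motif GCGTG of the aryl hydrocarbon receptor stood in 3 windows, those of Rora, Stat3 and Il6ra, and in 32.4% of all 32851 windows of 300 bases. The STAT motif TTCNNNGAA stood in 1 window, of Ccr6, and in 8.30% of all windows. The ROR motif AGGTCA stood in 2 windows, of Il17a and Ccr6, and in 16.3% of all windows. None of these letters stood in the windows of Tmem176a, Tmem176b and Il6st.

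The WT arrays numbered 2 stood apart from the rest. On the first principal component KO arrays lay from −36.2 to −5.20, WT arrays numbered 1 at −2.04 (TCDD) and 9.10 (DMSO), and WT arrays numbered 2 at 40.4 (TCDD) and 49.2 (DMSO). The 3′ minus 5′ difference of the actin control, which grows as RNA degrades, was 3.48 to 3.82 on KO arrays, 4.56 and 3.70 on WT TCDD and DMSO arrays numbered 1, and 3.30 and 2.90 on those numbered 2. For WT TCDD replicate 1 the labels conflict, since the description speaks of knockout mice and the remaining labels of wild type. The T cell receptor chain Cd3e read 9.36 ± 0.17 in KO cells, against 9.53 ± 0.09 in WT cells, and Cd4 8.16 ± 0.09 in KO cells, against 8.37 ± 0.28 in WT cells (SD, n = 4 per genotype).

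**Figure D1:**
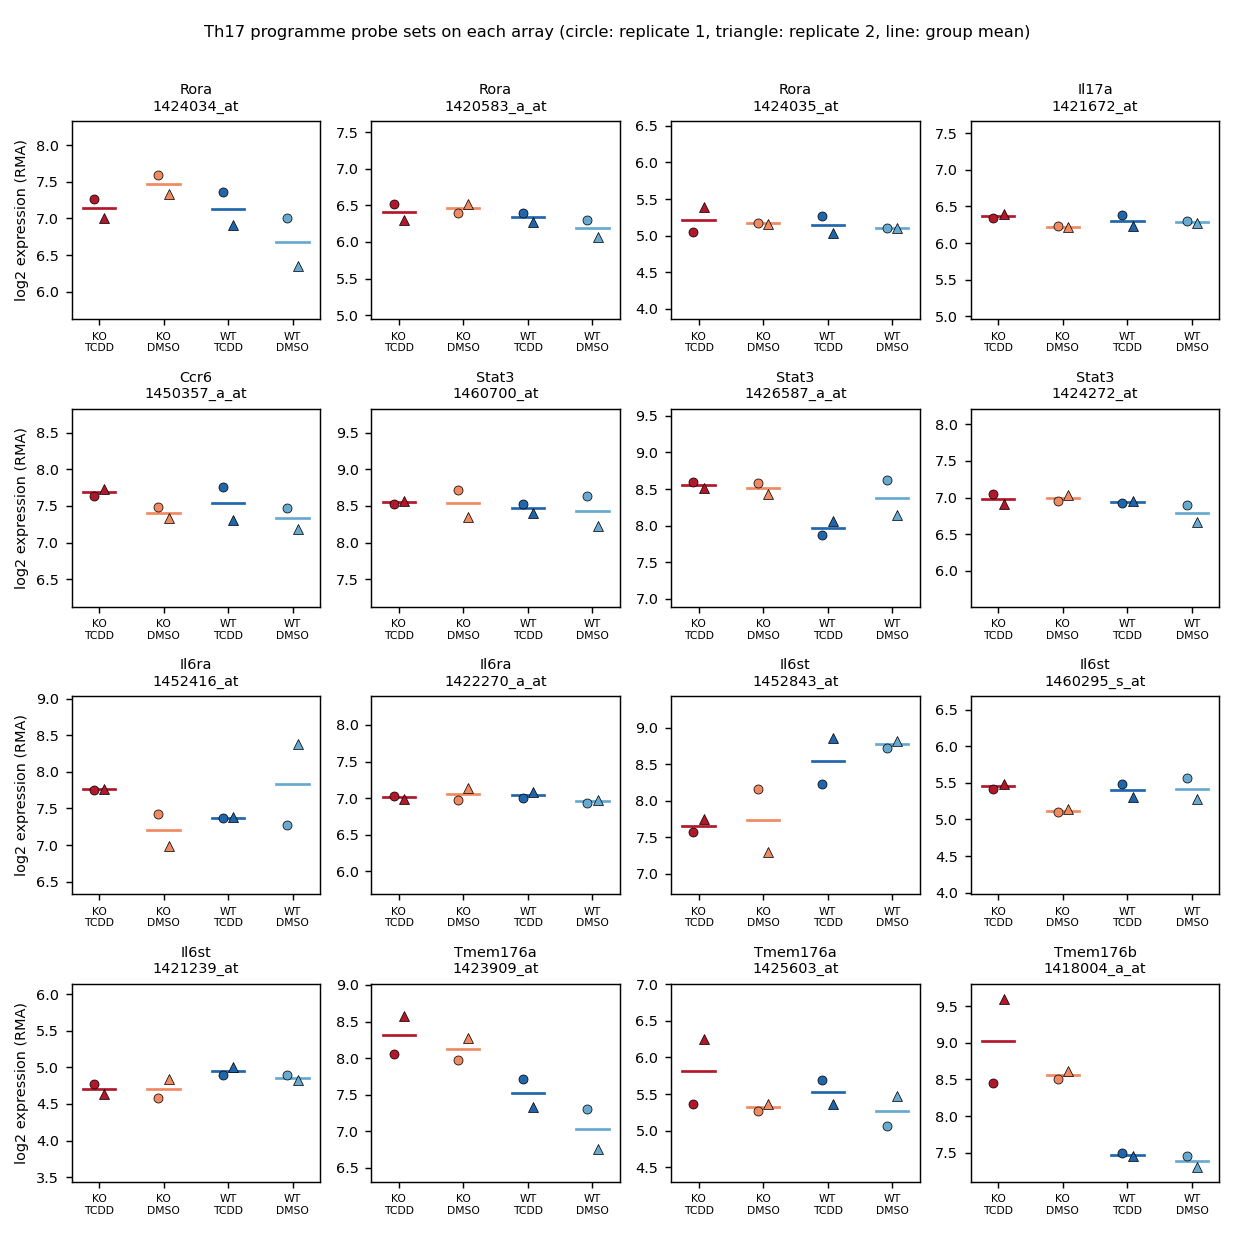
Log2 expression (vertical axis, RMA) of the 16 probe sets on each of the 8 arrays, in the groups KO TCDD, KO DMSO, WT TCDD and WT DMSO. Circles are replicate 1, triangles replicate 2 and lines group means, and every panel spans the same number of log2 units. KO and WT arrays are fully apart for Tmem176b, Tmem176a 1423909_at and Il6st 1452843_at.

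Genotypes were compared as 4 KO against 4 WT arrays, pooled over treatment as in the series' design text. Limma called 2 of the 16 member probe sets at a Benjamini-Hochberg (BH) adjusted p under 0.05, 1 higher and 1 lower in KO. The background was 2.79% of all probe sets, 1.59% higher and 1.2% lower in KO. Members and the lists below were chosen with earlier results of these data known, so shares set beside a background are no test. KO and WT arrays did not overlap for 3 of the 16, beside 12.3% of all probe sets, and 5 of the 16 had an unadjusted p under 0.05, beside 20.5% of all. The median KO minus WT difference was 0.10 over the member probe sets and −0.005 over all probe sets, and the median absolute difference was 0.15 and 0.13. Without both WT arrays numbered 2, 0 of the 16 were called, and without both numbered 1, 4 were. In bulk RNA such as this, fewer cells of a type and less RNA per cell cannot be told apart.

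Tmem176b read 8.45 and 9.60 on the KO TCDD arrays and 8.50 and 8.62 on the KO DMSO arrays, against 7.49 and 7.45 on the WT TCDD arrays and 7.45 and 7.31 on the WT DMSO arrays. All KO arrays lay above all WT arrays, with 0.96 log2 units between the nearest of them. The WT arrays lay within 0.18 log2 units of each other and the KO arrays within 1.15. The means were 8.79 ± 0.54 in KO cells, against 7.43 ± 0.08 in WT cells (SD, n = 4 per genotype), and the log2 difference was 1.37 (SE 0.24, limma BH adjusted p = 0.0306). A two-sided exact permutation test gave p = 0.0286, the smallest that 70 arrangements allow. The difference was 1.55 within the TCDD arrays and 1.18 within the DMSO arrays. Without KO TCDD replicate 2, the highest array, it was 1.10 (limma BH adjusted p = 0.00829).
The Tmem176b call was lost without KO TCDD replicate 1 (adjusted p = 0.0584), KO DMSO replicate 2 (0.0516), WT DMSO replicate 1 (0.0534), WT TCDD replicate 2 (0.0776) or WT DMSO replicate 2 (0.0833), all from limma with BH, while the difference stayed between 1.33 and 1.48.

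Tmem176a, the paralogue of Tmem176b, had 2 probe sets. On 1423909_at it read 8.06 and 8.57 on the KO TCDD arrays and 7.97 and 8.27 on the KO DMSO arrays, against 7.72 and 7.33 on the WT TCDD arrays and 7.31 and 6.76 on the WT DMSO arrays. The KO arrays again all lay above the WT arrays, here with a gap of 0.25. The means were 8.22 ± 0.27 in KO cells, against 7.28 ± 0.39 in WT cells (SD, n = 4 per genotype). The log2 difference of 0.94 (SE 0.21) did not pass (limma BH adjusted p = 0.0530). The two-sided exact permutation p = 0.0286 is the value that any full separation of 4 against 4 arrays gives. It passed when WT TCDD replicate 1, whose labels conflict, was left out (1.08, limma BH adjusted p = 0.0393).

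The other Tmem176a probe set, 1425603_at, did not separate the genotypes. It read 5.37 and 6.25 on the KO TCDD arrays and 5.27 and 5.37 on the KO DMSO arrays, against 5.69 and 5.36 on the WT TCDD arrays and 5.06 and 5.47 on the WT DMSO arrays. Apart from KO TCDD replicate 2, these values lie among each other, and with no detection call given, whether these low readings stand for Tmem176a transcript is not known. The log2 difference was 0.17 (SE 0.23, limma BH adjusted p = 0.735), and −0.058 without that array (0.880).

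Markers of myeloid and dendritic cells, which also make the TMEM176 proteins, were higher in KO as well. Of 19 measured marker genes, 11 rose and 0 fell, with a median log2 difference of 0.84, beside a background of 3.24% of genes called on their brightest probe set. This list too was chosen with earlier results of these data known, so its share is no test. The mean log2 level of the list was 7.80 to 8.27 on KO arrays and 6.85 to 7.03 on WT arrays, without overlap, and highest on KO TCDD replicate 2, as for Tmem176b. Irf8, a transcription factor of dendritic and myeloid cells, rose by 2.97 on the log2 scale, and Tyrobp, an adaptor for activating receptors of myeloid and NK cells, by 2.48 (limma BH adjusted p = 0.00787 and 0.00465). Mpeg1, a pore-forming protein of macrophages, rose by 2.27 and Ly86, the partner of a Toll-like receptor homologue, by 2.13 (limma BH adjusted p = 0.0106 and 0.00424).
Cd68, a macrophage lysosomal protein, read 6.60 to 7.33 on KO arrays, against 4.98 to 5.30 on WT arrays, and rose by 1.87 (limma BH adjusted p = 0.00424). Lyz2, the macrophage lysozyme, read 6.90 to 8.08 on KO arrays, against 6.72 to 7.98 on WT arrays, and Itgax, a dendritic cell integrin, 6.44 to 7.50 on KO arrays, against 6.45 to 6.86 on WT arrays. These overlap, and neither was called (limma BH adjusted p = 0.875 and 0.376).
Of 6 measured genes of class II antigen presentation 5 rose, with list means of 9.29 to 10.3 on KO arrays and 7.59 to 8.20 on WT arrays. Cd74, the class II invariant chain, rose by 2.75, H2-Ab1 by 2.10 and H2-Aa by 1.72, both chains of class II molecules. The part of these markers in the Tmem176b and Tmem176a differences was not tested.

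**Figure D2:**
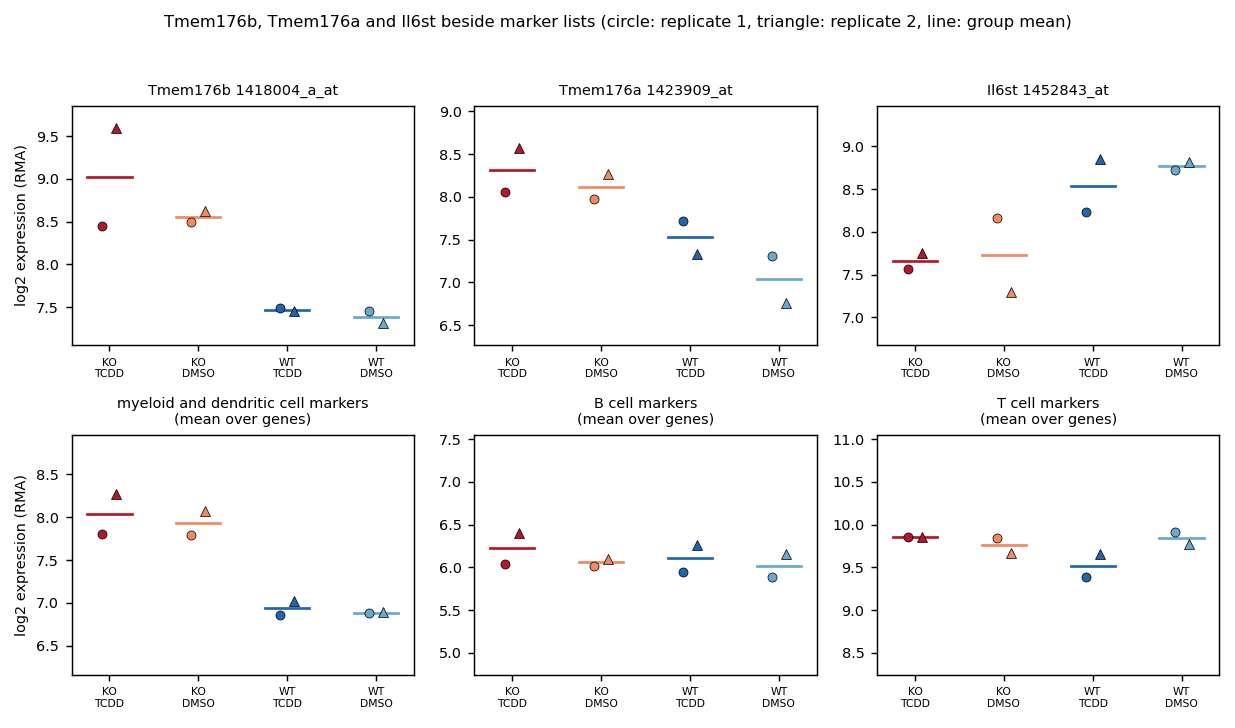
Log2 expression (vertical axis, RMA) of Tmem176b, Tmem176a and Il6st (top) and mean log2 level of the myeloid and dendritic, B cell and T cell marker lists (bottom) on each array, with circles for replicate 1, triangles for replicate 2 and lines for group means. Tmem176b, Tmem176a and the myeloid list are higher on all KO arrays than on any WT array, Il6st is lower on all KO arrays, and the B and T cell lists overlap.

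The genes whose pattern over the 8 arrays was most like that of Tmem176b, by Pearson r of log2 values, were Hfe (0.988), H2-DMa (0.981) and Tgfbi (0.978). H2-DMa, a chaperone of class II loading, rose by 1.87 in KO (limma BH adjusted p = 0.00793). For Tmem176a they were Tcn2 (0.985), Tmsb10 (0.984) and Lrig1 (0.983), and for Il6st Tmtc4 (0.991), Zbtb44 (0.991) and Ccng2 (0.987). For Rora they were C2cd3 (0.955), Mafg (0.948) and Fbxo22 (0.935). The closest gene was Miga2 (0.978) for Il17a, Mtfr1 (0.978) for Ccr6, Penk (0.974) for Stat3 and Pja2 (0.960) for Il6ra. These r describe the same 8 arrays and come from a search for the highest values, so they carry no test.

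The IL-6 receptor chains differed from each other and between their own probe sets. Il6st encodes gp130, the signalling chain shared by IL-6 and related cytokines. On 1452843_at it read 7.57 and 7.75 on the KO TCDD arrays and 8.16 and 7.30 on the KO DMSO arrays, against 8.23 and 8.85 on the WT TCDD arrays and 8.72 and 8.82 on the WT DMSO arrays. All KO arrays lay below all WT arrays, but KO DMSO replicate 1 and WT TCDD replicate 1 were only 0.07 log2 units apart. The means were 7.70 ± 0.36 in KO cells, against 8.65 ± 0.29 in WT cells (SD, n = 4 per genotype). Il6st thus fell by 0.96 on the log2 scale (SE 0.20, limma BH adjusted p = 0.0464). The two-sided exact permutation p = 0.0286 is again the value that any full separation gives. The difference was −0.88 within the TCDD arrays and −1.04 within the DMSO arrays.
The Il6st call was lost without KO TCDD replicate 1 (adjusted p = 0.132), KO TCDD replicate 2 (0.127), KO DMSO replicate 2 (0.0792), WT DMSO replicate 1 (0.0850), WT TCDD replicate 2 (0.112) or WT DMSO replicate 2 (0.120), all from limma with BH, with differences from −0.98 to −0.83. It held without WT TCDD replicate 1, at −1.10 (limma BH adjusted p = 0.0384).

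The other Il6st probe sets were not called. Probe set 1460295_s_at read 5.10 to 5.49 on KO arrays, against 5.28 to 5.56 on WT arrays, a difference of −0.12 (SE 0.12, limma BH adjusted p = 0.623). Probe set 1421239_at averaged 4.71 ± 0.12 in KO cells, against 4.90 ± 0.07 in WT cells (SD, n = 4 per genotype), a difference of −0.20 (SE 0.08, limma BH adjusted p = 0.222). All 3 probe sets had a negative difference, and the genotypes overlap in these last ones. The deposited values hold no detection call, so whether these low readings stand for Il6st transcript is not known. Of 8 probe sets for Y-linked genes, which female mice lack, 7 read 3.81 to 5.44, and the means of both these Il6st probe sets lay within that range. The highest Y-linked one, Sry 1450579_x_at, read 6.85 to 7.41.

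Il6ra, the chain that binds IL-6 itself, gave no call on either probe set. On 1452416_at it read 7.75 and 7.77 on the KO TCDD arrays and 7.43 and 6.98 on the KO DMSO arrays, against 7.37 and 7.38 on the WT TCDD arrays and 7.28 and 8.38 on the WT DMSO arrays. WT DMSO replicate 2 lay a full log2 unit above the other WT arrays, and the genotypes overlap. The difference was −0.12 (SE 0.27, limma BH adjusted p = 0.853), and 0.14 without that array (0.790). Probe set 1422270_a_at was nearly flat, at 6.97 to 7.14 on KO arrays, against 6.94 to 7.08 on WT arrays, with a 95% interval of the difference from −0.13 to 0.20.

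**Figure D3:**
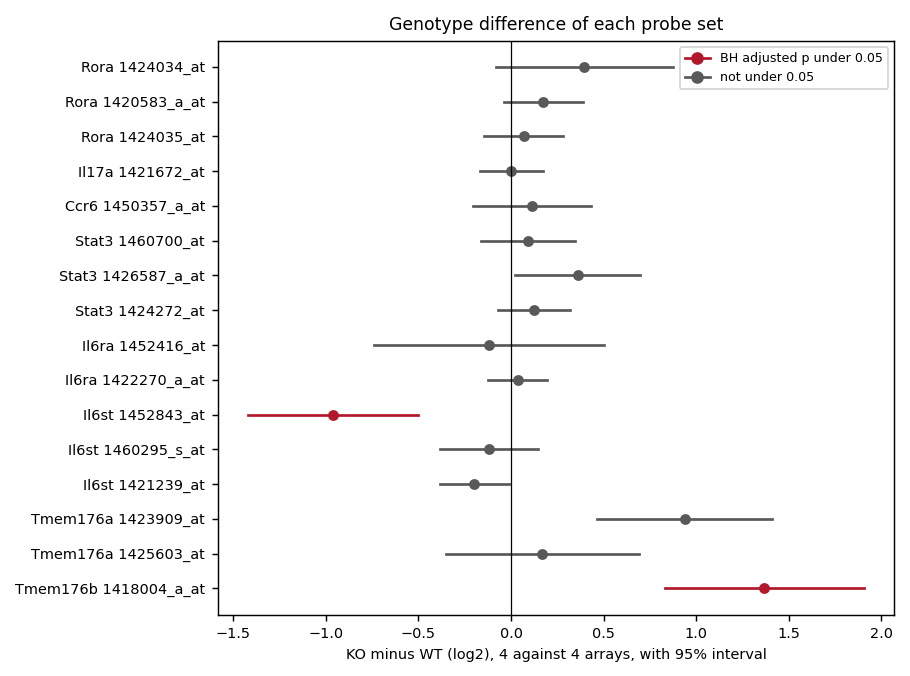
KO minus WT log2 difference (horizontal axis) of each of the 16 probe sets with its 95% interval from limma, over 4 KO and 4 WT arrays. Red marks an adjusted p under 0.05, for Tmem176b at 1.37 and Il6st 1452843_at at −0.96, and Tmem176a 1423909_at at 0.94 is the nearest of the rest.

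Stat3, which carries the IL-6 signal to the nucleus, gave no call on its 3 probe sets. On 1426587_a_at it read 8.60 and 8.51 on the KO TCDD arrays and 8.59 and 8.43 on the KO DMSO arrays, against 7.87 and 8.06 on the WT TCDD arrays and 8.62 and 8.14 on the WT DMSO arrays. The KO arrays lay within 0.17 log2 units of each other and above 3 of the 4 WT arrays, but below WT DMSO replicate 1. The difference was 0.36 (SE 0.15, limma BH adjusted p = 0.217). It passed without WT DMSO replicate 1 (0.51, limma BH adjusted p = 0.0487) and without both WT arrays numbered 1 (0.43, 0.0332).
Stat3 probe set 1460700_at read 8.35 to 8.72 on KO arrays, against 8.23 to 8.63 on WT arrays, and 1424272_at 6.91 to 7.05 on KO arrays, against 6.67 to 6.95 on WT arrays. Both overlap between genotypes, and their differences of 0.09 (SE 0.11) and 0.13 (SE 0.08) were not called (limma BH adjusted p = 0.705 and 0.459).

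Rora, a nuclear receptor of the ROR family, had 3 probe sets and no call. On 1424034_at it read 7.27 and 7.01 on the KO TCDD arrays and 7.60 and 7.33 on the KO DMSO arrays, against 7.36 and 6.91 on the WT TCDD arrays and 7.01 and 6.35 on the WT DMSO arrays. The lowest array was WT DMSO replicate 2, and the genotypes overlap by 0.35 log2 units. The difference was 0.40 (SE 0.21, limma BH adjusted p = 0.337), with 0.005 within the TCDD arrays and 0.79 within the DMSO arrays. Probe set 1420583_a_at read 6.30 to 6.52 on KO arrays, against 6.07 to 6.40 on WT arrays, and 1424035_at 5.05 to 5.39 on KO arrays, against 5.03 to 5.27 on WT arrays. Their differences were 0.18 and 0.07 (SE 0.09 each, limma BH adjusted p = 0.339 and 0.745). Whether the low reading of 1424035_at stands for Rora transcript is not known, as no detection call is given. Its values lay within the 3.81 to 5.44 of most Y-linked probe sets.

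Il17a, the cytokine that names these cells, read 6.34 and 6.40 on the KO TCDD arrays and 6.23 and 6.22 on the KO DMSO arrays, against 6.38 and 6.23 on the WT TCDD arrays and 6.30 and 6.27 on the WT DMSO arrays. All 8 values lie within 0.18 log2 units, and the genotypes overlap. The means were 6.30 ± 0.09 in KO cells, against 6.30 ± 0.06 in WT cells (SD, n = 4 per genotype), and the 95% interval of the difference ran from −0.17 to 0.17. The deposited values hold no detection call, so whether this reading stands for Il17a transcript is not known. The Y-linked probe set Sry 1450579_x_at read higher in these female mice, at 6.85 to 7.41.

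Ccr6, a chemokine receptor that guides Th17 cells and B cells, read 7.64 and 7.73 on the KO TCDD arrays and 7.48 and 7.33 on the KO DMSO arrays, against 7.76 and 7.31 on the WT TCDD arrays and 7.47 and 7.19 on the WT DMSO arrays. The highest array was a WT one, and the genotypes overlap by 0.43 log2 units. The difference was 0.11 (SE 0.14, limma BH adjusted p = 0.712), with a 95% interval from −0.20 to 0.43. Of 9 measured B cell markers 0 were called, beside a background of 3.24% of genes. The list's median difference was −0.03, and 4 genes had a positive one. Cd79a, a B cell receptor chain, read 5.59 ± 0.20 in KO cells, against 5.67 ± 0.05 in WT cells (SD, n = 4 per genotype). Cd79b differed by 0.67 and Ms4a1 by −0.33 (limma BH adjusted p = 0.374 and 0.605). Blnk differed by 0.48, with no overlap between genotypes (limma BH adjusted p = 0.0753).

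Tmem176b, Tmem176a 1423909_at, Stat3 1460700_at and Rora 1424035_at had the same order of group means, with KO TCDD highest, then KO DMSO, WT TCDD and WT DMSO. For Tmem176b the group means were 9.03, 8.56, 7.47 and 7.38 in that order. For Il6st 1452843_at the order was WT DMSO, WT TCDD, KO DMSO and KO TCDD, at 8.77, 8.54, 7.73 and 7.66. The steps within a genotype did not pass for these or any other member probe set.

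Whether TCDD changed these genes was asked within each genotype, 2 TCDD against 2 DMSO arrays. The model had 4 group means and did not pair arrays by number. Limma called 0 of the 16 member probe sets in KO and 0 in WT, beside 0% of all probe sets in each. At an unadjusted p under 0.05 there was 1 member probe set in KO, beside 1.69% of all, and 0 in WT, beside 2.79% of all. The 1 was Il6st 1460295_s_at, at 5.42 and 5.49 on the KO TCDD arrays, against 5.10 and 5.14 on the KO DMSO arrays. Its arrays do not overlap, and the difference of 0.34 (SE 0.14) was not called (limma BH adjusted p = 0.9997). The median TCDD minus DMSO difference of the members was 0.05 in KO and 0.09 in WT, beside 0.03 and 0.025 over all probe sets.

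The intervals of single members were wide. For Tmem176b the TCDD difference was 0.47 in KO (95% interval −0.35 to 1.28) and 0.09 in WT (−0.72 to 0.90). For Il6st 1452843_at it was −0.07 in KO (−0.83 to 0.69) and −0.23 in WT (−0.99 to 0.53). For Il17a it was 0.15 in KO (−0.11 to 0.40) and 0.02 in WT (−0.23 to 0.27), and all 6 of these intervals include 0. The TCDD difference in KO minus that in WT was 1.01 (SE 0.49) for Il6ra 1452416_at and −0.78 (SE 0.37) for Rora 1424034_at, the extremes among the members. Neither passed (limma BH adjusted p = 0.998), and 0 of the 16 had an unadjusted p under 0.05 for this difference, beside 2.78% of all probe sets.

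**Figure D4:**
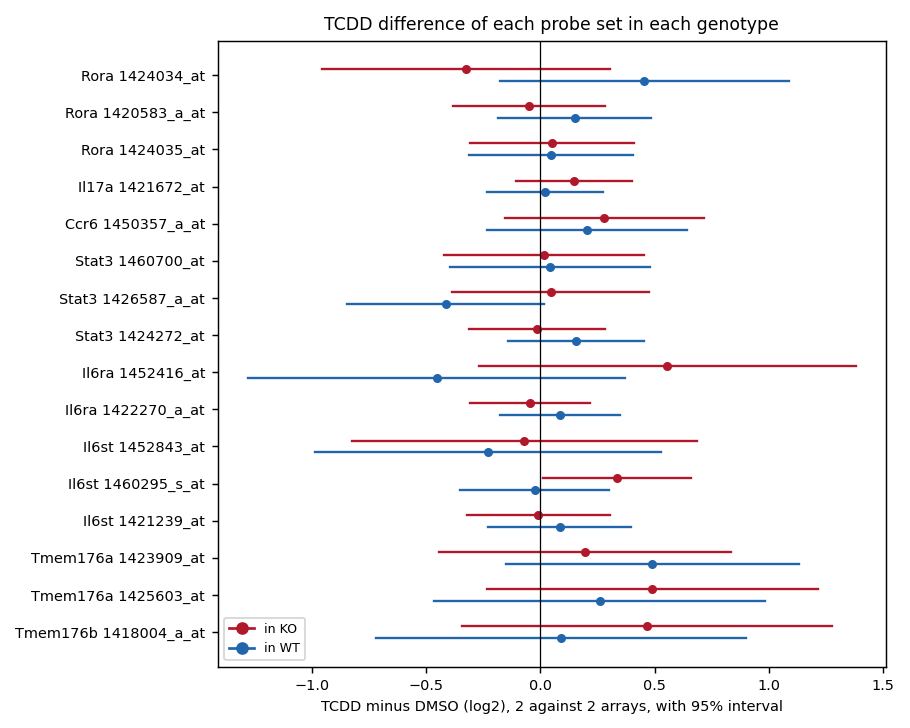
TCDD minus DMSO log2 difference (horizontal axis) of each probe set in KO (red) and WT (blue), each over 2 against 2 arrays, with 95% intervals from limma. The intervals include 0 except for Il6st 1460295_s_at in KO at 0.34, which was not called after adjustment.

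The other genes of the pathway gave 0 calls on their brightest probe sets. Of 60 genes listed for Th17 factors, cytokines, IL-6 and STAT3 signalling, inducing receptors, homing and opposing factors, 54 were measured. Of these 0 rose and 0 fell in KO, beside the background of 3.24%, their median difference was 0.04, beside 0.005 over all genes, and 16 had an unadjusted p under 0.05 (29.6%), beside 22.2% of all genes. Among all 91 of their probe sets 1 was called, 1 of 3 for Lifr, a receptor that pairs with gp130 for leukaemia inhibitory factor. It read 5.43 ± 0.30 in KO cells, against 4.51 ± 0.21 in WT cells (SD, n = 4 per genotype), a difference of 0.92 (limma BH adjusted p = 0.0327). The brightest Lifr probe set differed by −0.03. Whether the low reading of the called one stands for Lifr transcript is not known, as no detection call is given.

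Ahr itself, a factor that Th17 cells carry, read 6.74 ± 0.26 in KO cells, against 6.21 ± 0.10 in WT cells, on 1422631_at (SD, n = 4 per genotype). On 1450695_at it read 6.52 ± 0.23 in KO cells, against 6.48 ± 0.14 in WT cells. Neither was called (limma BH adjusted p = 0.0658 and 0.906). Since the deleted part is not stated, these probes do not check the genotype labels. Hif1a, the oxygen-sensing factor, differed by −0.48 on 1416035_at (limma BH adjusted p = 0.0781), Tgfb1, a cytokine that induces Th17 cells, by 0.35 (0.105) and Csf2, the cytokine GM-CSF, by 0.47 (0.152). None of these passed.

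In IL-6 signalling, the gp130-bound kinase Jak1 differed by −0.17 on its brightest probe set (limma BH adjusted p = 0.703). Its probe set 1433805_at read 6.87 and 7.26 on the KO TCDD arrays and 7.54 and 7.58 on the KO DMSO arrays, against 7.67 and 9.43 on the WT TCDD arrays and 8.29 and 9.32 on the WT DMSO arrays. All KO arrays lay below the WT arrays, of which those numbered 2 were highest, and the difference of −1.36 was not called (limma BH adjusted p = 0.0925). Socs3, the inhibitor that STAT3 induces, differed by 0.08, 0.15 and 0.43 on its 3 probe sets, none of them called.

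Among inducing receptors, Tgfbr1, a chain for TGF-beta, read 6.20 ± 0.33 in KO cells, against 7.35 ± 0.51 in WT cells (SD, n = 4 per genotype), on the brightest of its 3 probe sets, without a call (limma BH adjusted p = 0.0549). The others differed by 0.10 and −0.065. Il12rb1, a chain shared by the IL-12 and IL-23 receptors, differed by 0.31 (limma BH adjusted p = 0.0828). Of homing and surface genes, Cxcr6 differed by 0.40 and Icos by −0.58, each on its brightest probe set (limma BH adjusted p = 0.0628 and 0.103). On their other probe sets Cxcr6 differed by 0.59 and Icos by 0.03. Of opposing factors, Tbx21, the Th1 regulator, differed by 1.07 (limma BH adjusted p = 0.0638) and Eomes, a related factor of CD8 T and NK cells, by −0.25 on its brightest probe set (0.166), and these did not pass either. Markers of T cells had 0 of 9 called, beside that same background of 3.24% of genes. Among 9 measured NK and CD8 T cell markers 2 were called, beside a background of 3.24% of genes. The median difference of this list was 0.12, and 7 genes had a positive one. Nkg7 rose by 1.38 and Klrg1 by 1.31 (limma BH adjusted p = 0.0214 and 0.00896), while Cd8a, not called, read 5.62 ± 0.06 in KO cells, against 5.77 ± 0.07 in WT cells (SD, n = 4 per genotype).

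**Figure D5:**
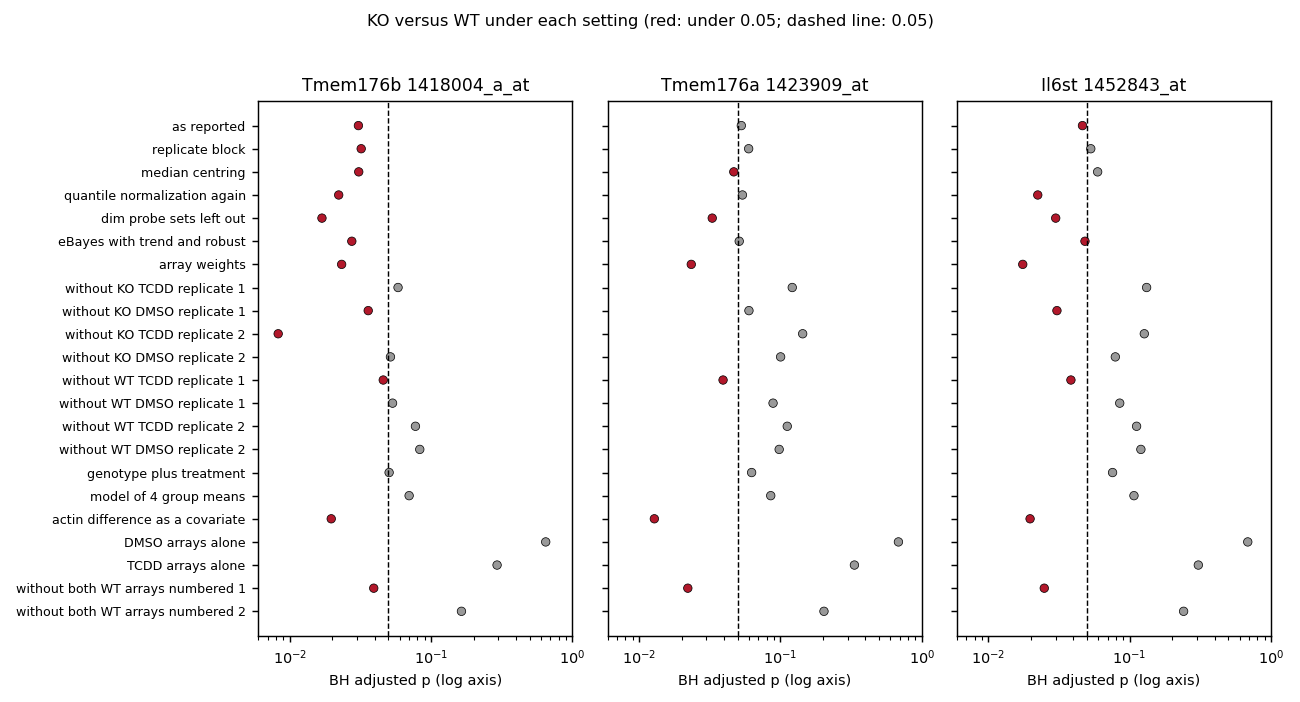
BH adjusted p of KO versus WT (horizontal log axis) for Tmem176b, Tmem176a 1423909_at and Il6st 1452843_at as reported (top) and under each of 21 alternatives, with red below 0.05. Points lie on both sides of the threshold for all 3 probe sets.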

How the data were processed

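Per the submitters' processing notes, the authors made the deposited log2 values with RMA and the affy package, and the sources used here give no versions. TRIZOL extraction, Ambion amplification and hybridisation to an Affymetrix mouse array preceded this, per the labels' protocols. The table held 22690 probe sets, of which 64 controls were left out. In the platform annotation 20380 of the rest had 1 gene symbol, 691 several and 1555 none, and all 8 members matched RefSeq.

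Groups came from the sample titles. Limma 3.58.1 in R 4.3.3 (lmFit, eBayes) was fitted to 22626 probe sets, for KO against WT on all 8 arrays, and for TCDD against DMSO and the interaction in a model of 4 group means, with BH adjustment and a threshold of 0.05. The fits were tested on simulated data. Permutation tests were exact over 70 arrangements. No batch is labelled, the number of arrays limits precision, and no pair of arrays shared more than 2.85% identical values. The members and lists were chosen with earlier results of these data known. The text names all member probe sets. Of each pathway list it names genes with a called probe set, otherwise up to 2 with the smallest p, and Jak1 and Socs3. Of marker lists it names up to 4 called genes by size and fixed markers, and likeness takes the 3 highest r per member, of which some are printed. Alternatives were a replicate block, other scalings, a filter on dim probe sets, variance models, array weights, covariates, subsets of arrays and each array left out.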

Additional observations from a re-analysis of the deposited data

Results flagged for a closer look

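In 32 sets of 4 arrays (16 probe sets in each genotype), 3 sets had 1 array far from the other 3, where chance gives about 1 in 20. Tmem176b read 9.60 on KO TCDD replicate 2, against 8.45 to 8.62 on the other KO arrays. Tmem176a 1425603_at read 6.25 on that same array, against 5.27 to 5.37 on the other KO arrays. Il6ra 1452416_at read 8.38 on WT DMSO replicate 2, against 7.28 to 7.38 on the other WT arrays. No difference of the TCDD effect between genotypes passed for any member probe set, beside 0% of all probe sets.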

How the results depend on the processing

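Of 332 combinations of a member probe set and an alternative for KO against WT, 283 kept direction and side of the threshold, 23 lost the call, 8 gained it and 18 turned in sign. Of the 2 called members, 1 was left with the replicate block (Tmem176b, adjusted p = 0.0321, against 0.0531 for Il6st). The arrays' numbers were not taken as pairs, since deviations of same-numbered arrays correlated from −0.29 to 0.63 between groups. The 0.63 was that of WT TCDD with WT DMSO, so within WT the arrays of a number did go together. The TCDD test in WT and the genotype test as reported leave this out and treat the WT arrays as independent. The count was 0 with genotype plus treatment (0.0505 for Tmem176b and 0.0757 for Il6st), 0 when fitted by 4 group means (0.0700 and 0.107), 0 on DMSO arrays only (0.648 and 0.685), 0 on TCDD arrays only (0.293 and 0.306), 0 without both WT arrays numbered 2 (0.164 and 0.241, limma with BH) and 4 without both numbered 1. Leaving out 1 array gave 0 to 3. Tmem176a 1423909_at passed after median centring (0.0468), with dim probe sets left out (0.0330), array weights (0.0234), the actin covariate (0.0128), without WT TCDD replicate 1 (0.0393) and without both WT arrays numbered 1 (0.0221), and Il6st did not after median centring (0.0593). The count over all probe sets was 631 as reported, 801 with the replicate block, 199 with genotype plus treatment and 161 by 4 group means. It was 0 on DMSO arrays only, 0 on TCDD arrays only, 28 without both WT arrays numbered 2 and 2375 without both numbered 1. With 1 array left out it ran from 109 to 667. TCDD and interaction counts were 0 in every alternative run. The cause was not tested.

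Of the 54 pathway genes, 0 as reported, 2 were called with the replicate block, 3 after quantile normalization, 2 with dim probe sets left out, 1 with trend and robust eBayes, 7 with array weights, 5 with the actin covariate, 5 without both WT arrays numbered 1, and 0 to 2 with 1 array left out. Over all probe sets the counts in that order were 801, 985, 884, 526, 1604, 1834 and 2375, and 109 to 667 with 1 array left out, beside 631 as reported. Signs turned for uncalled differences. Il17a was −0.0017 with the actin covariate, −0.06 on DMSO arrays, −0.043 without both WT arrays numbered 2 and −0.032 to 0.031 with 1 array left out. Without both WT arrays numbered 2, Ccr6 was −0.07, Stat3 1460700_at −0.038 and Il6ra 1452416_at 0.16. Il6ra 1452416_at was also 0.17 with array weights, 0.39 on TCDD arrays and −0.23 to 0.14 with 1 array left out. Il6ra 1422270_a_at was −0.03 on TCDD arrays and −0.00083 to 0.063 with 1 array left out, Il6st 1460295_s_at was 0.06 on TCDD arrays, and Tmem176a 1425603_at was −0.058 to 0.27 with 1 array left out.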

Other observations

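KO TCDD replicate 2, the highest array for Tmem176b and for both Tmem176a probe sets, was also the highest for the class II presentation list, at a mean log2 level of 10.3, with the other KO arrays at 9.29 to 9.75. It was the highest for the B cell list as well, at 6.41, with the other 7 arrays below. On the NK and CD8 T cell list it read 7.39, with WT arrays at 6.57 to 6.88.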
